A study of Mus musculus with 10 samples.

Results

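The genes described here are the 7 that encode the subunits of AMP-activated protein kinase (AMPK) in the mouse, namely Prkaa1, Prkaa2, Prkab1, Prkab2, Prkag1, Prkag2 and Prkag3. They were chosen by name from the 30063 genes that had an array row annotated to a single gene, and all 7 were measured, each by 1 row. RNA was taken from whole kidneys of 5 Lkb1 knockout mice and 5 control mice, all 5 weeks old, and each kidney had its own Affymetrix array. The knockouts carried a floxed Lkb1 (Stk11) allele and the KspCre transgene, in which the Cdh16 promoter drives Cre in kidney tubules. The controls were littermates without KspCre that were Lkb1flox/+ or Lkb1flox/flox, so the Cre transgene was present in the knockouts only and its own effect cannot be told apart from that of Lkb1 loss. The titles and the condition label call the first group a Stk11 knockdown, the protocol describes a Cre knockout, and the design text names MDCK cells although every array here holds mouse kidney. All mice are labelled C57Bl/6N, but the protocol gives the floxed line a mixed background.

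AMPK senses a low energy charge in the cell. It is a trimer of a catalytic alpha subunit (Prkaa1 or Prkaa2), a scaffolding beta subunit that binds glycogen (Prkab1 or Prkab2) and a gamma subunit that binds adenine nucleotides (Prkag1, Prkag2 or Prkag3). LKB1 is its main upstream kinase and phosphorylates a threonine in the activation loop of alpha. Active AMPK slows the synthesis of fatty acids, sterols and protein, promotes fatty acid oxidation and autophagy, and acts on several ion transport proteins of the kidney. The arrays measured RNA and give no reading of phosphorylation or of kinase activity.

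The DNA upstream of the start sites is shown for the alpha and beta pairs, because the results below turn on Prkab1 and on the ratio of the alpha pair. Each line gives the 250 bases before the RefSeq start (GRCm38.p6, the assembly of the mm10 build), read 5′ to 3′ on the strand of the gene, and for Prkab1 the start of the transcript lies inside the annotated gene. Capitals mark matches on either strand to a GC box (GGGCGG) or to the core bound by ETS factors (CGGAAG), overlapping matches included.
Prkab1, chr5:116024429-116024678, minus strand: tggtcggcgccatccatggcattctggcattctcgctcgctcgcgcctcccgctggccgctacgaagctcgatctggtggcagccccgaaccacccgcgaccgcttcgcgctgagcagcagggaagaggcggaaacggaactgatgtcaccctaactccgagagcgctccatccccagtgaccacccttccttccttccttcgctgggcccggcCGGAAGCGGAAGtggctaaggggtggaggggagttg
Prkab2, chr3:97657962-97658211, plus strand: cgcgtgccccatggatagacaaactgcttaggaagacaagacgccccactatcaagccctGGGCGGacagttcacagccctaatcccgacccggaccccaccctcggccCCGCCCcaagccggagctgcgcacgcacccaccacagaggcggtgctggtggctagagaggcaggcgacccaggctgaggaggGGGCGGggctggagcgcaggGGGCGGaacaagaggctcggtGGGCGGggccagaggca
Prkaa1, chr15:5143611-5143860, plus strand: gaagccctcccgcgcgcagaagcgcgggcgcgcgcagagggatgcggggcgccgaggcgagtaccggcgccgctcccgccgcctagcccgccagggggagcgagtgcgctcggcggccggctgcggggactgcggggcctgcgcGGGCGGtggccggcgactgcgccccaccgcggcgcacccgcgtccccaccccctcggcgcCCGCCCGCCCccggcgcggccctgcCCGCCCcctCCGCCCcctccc
Prkaa2, chr4:105109899-105110148, minus strand: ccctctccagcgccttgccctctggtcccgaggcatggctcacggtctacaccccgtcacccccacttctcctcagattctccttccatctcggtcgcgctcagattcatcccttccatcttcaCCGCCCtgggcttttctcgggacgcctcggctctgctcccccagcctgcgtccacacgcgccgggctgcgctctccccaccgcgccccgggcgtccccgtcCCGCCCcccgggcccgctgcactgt

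The window of Prkab1 held 2 adjacent CGGAAG matches and no GGGCGG, whereas those of Prkab2, Prkaa1 and Prkaa2 held 5, 5 and 2 GGGCGG matches and no CGGAAG. Among 32851 mouse windows of this length, 32.7% held GGGCGG and 13.6% held CGGAAG. None of the 4 windows shown held a CCAAT box, which 33.8% of all windows held, or a TATA box (letters TATAAA), which 12.4% held. The cyclic AMP response element (TGACGTCA, in 1.55% of all windows) had no match in them either. The E-box was also without a match, and 6.02% of all windows held its letters CACGTG. The GC content was 65.6% for Prkab1, 69.2% for Prkab2, 85.2% for Prkaa1 and 70.0% for Prkaa2, against a median of 52.4% over all windows. The motifs were chosen after the sequences were seen, and a match describes letters, not binding.

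Values are RMA log2 intensities, background-corrected, normalised and summarised per transcript cluster by the submitters. The array medians over genes ran from 6.13 to 6.24, correlations between arrays over all rows from 0.987 to 0.995, and precision is limited by the number of arrays. Brightness is given as the share of the 5222 negative control probe sets that a group mean exceeded. Markers of the proximal tubule (Slc34a1), thick ascending limb (Umod), distal convoluted tubule (Slc12a3) and collecting duct (Aqp2) exceeded 99.1% to 99.9% of them in controls, and the podocyte marker Nphs1 exceeded 91.0%. Stk11, the targeted gene, was lower in every knockout kidney. Its values were 9.12, 9.21, 9.07, 9.21 and 9.31 in knockouts 1 to 5, against 9.43, 9.40, 9.48, 9.46 and 9.40 in controls 1 to 5. The knockout level was 84.1% of the control level (95% interval 78.3% to 90.3%; log2 difference -0.25, SE 0.05, limma adjusted p = 0.00746; two-sided exact permutation p = 0.00794, the smallest that 5 against 5 allows). The single value covers the whole transcript cluster and all kidney cells, so deleted exons and tubule cells were not measured apart.

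Of the 7 subunit genes, Prkab1 was the only one that passed the threshold of limma adjusted p under 0.05, and it was higher in the knockouts. The other 6 did not pass in either direction. Over all genes tested 8.04% passed, 5.37% higher and 2.67% lower, so 1 of 7 does not set the subunit genes apart by count. At an unadjusted p under 0.05 the count was 2 of 7 (Prkab1 and Prkaa2), against 23.0% of all genes. The median log2 difference of the 7 genes was 0.03, beside -0.03 over all genes, and the 7 differences ran from -0.11 to 0.25. For none of the 7 were the 5 knockout values all beyond the 5 control values, while 8.58% of all genes had such groups.

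**Figure D1:**
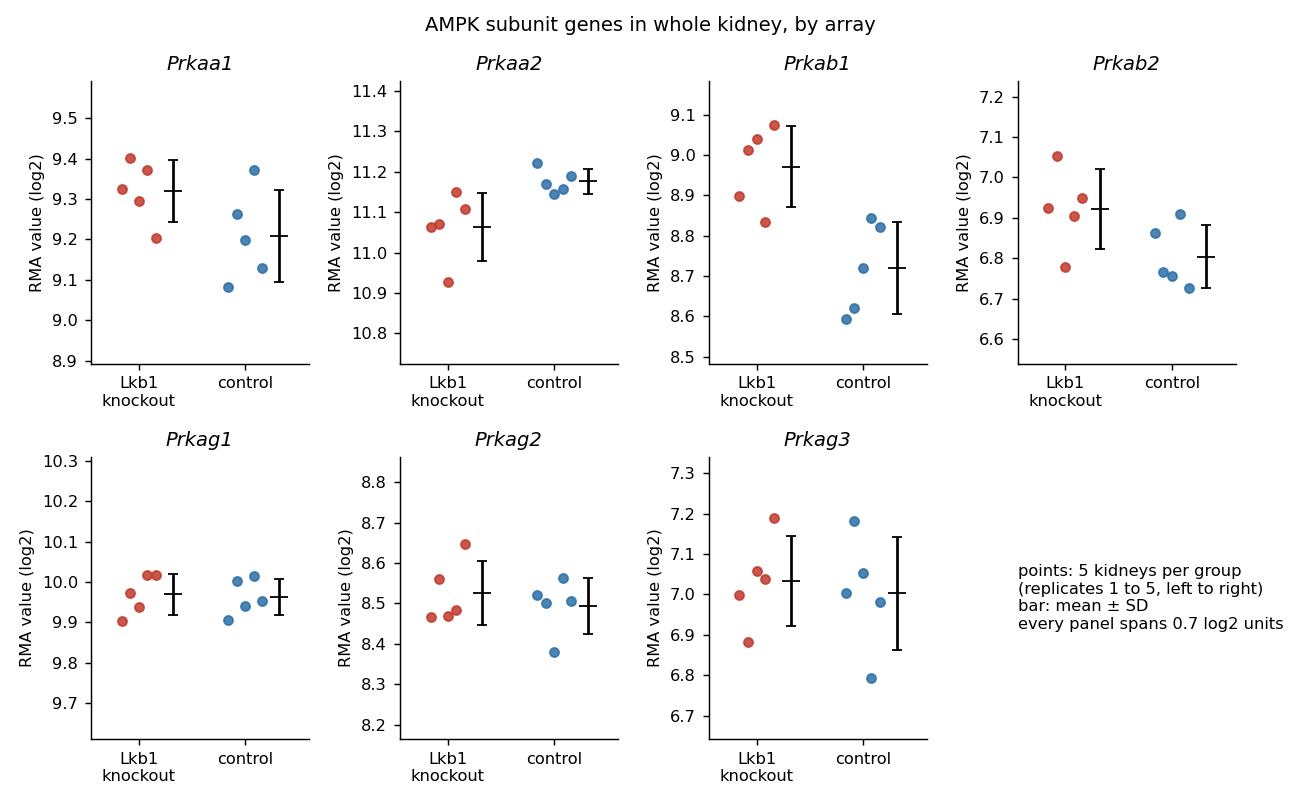
RMA log2 value of each subunit gene in each kidney, knockouts at the left and controls at the right of each panel (n = 5 each), with mean ± SD as bars. Prkab1 has 4 of 5 knockouts above every control and Prkaa2 has 4 of 5 knockouts below every control, whereas the groups of Prkag1, Prkag2 and Prkag3 lie over each other.

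Prkaa1 encodes the alpha1 catalytic subunit and lies on chromosome 15 at 5143861 to 5181899 (GRCm38.p6). It measured 9.33, 9.40, 9.29, 9.37 and 9.20 in knockouts 1 to 5, against 9.08, 9.26, 9.20, 9.37 and 9.13 in controls 1 to 5. Knockout 2 alone lay above every control, and control 4 lay above the other knockouts. The means were 9.32 ± 0.08 in knockouts and 9.21 ± 0.11 in controls (SD, n = 5 each), and the log2 difference of 0.11 (SE 0.06, adjusted p = 0.284) did not pass. The interval ran from 98.8% to 118% of the control level.

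Prkaa2 encodes the alpha2 catalytic subunit and lies on chromosome 4 at 105029649 to 105109898. It measured 11.06, 11.07, 10.93, 11.15 and 11.11 in knockouts 1 to 5, against 11.22, 11.17, 11.14, 11.16 and 11.19 in controls 1 to 5. Knockout 3 was the lowest array, and all knockouts except knockout 4 lay below every control. The means were 11.06 ± 0.08 in knockouts and 11.18 ± 0.03 in controls, a log2 difference of -0.11 (SE 0.04, unadjusted p = 0.0261, adjusted p = 0.151) that did not pass, with an interval of 86.4% to 98.9% of the control level. With quantile normalisation applied to the arrays the difference was -0.17 and it passed (adjusted p = 0.0130). The two-sided exact permutation p of Prkaa2, unadjusted and added after the data were seen, was 0.0159, the same as that of Prkab1 below. For the other members this test gave p from 0.0556 (Prkab2) to 0.857 (Prkag1).

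The ratio of the alpha genes differed between the groups, by a test that lay close to its threshold. The log2 value of Prkaa1 minus that of Prkaa2 within an array was -1.74, -1.67, -1.63, -1.78 and -1.91 in knockouts 1 to 5, against -2.14, -1.91, -1.94, -1.78 and -2.06 in controls 1 to 5. Of the knockouts, 4 of 5 lay above every control, the exception being knockout 5, and control 4 lay just under knockout 4. The mean was -1.74 ± 0.11 in knockouts and -1.97 ± 0.14 in controls (SD, n = 5 each), so the ratio of Prkaa1 to Prkaa2 was higher in knockouts by 0.22 log2 units (SE 0.08, two-sided exact permutation p = 0.0159, adjusted over 3 paralogue pairs p = 0.0476). With 1 array left out this adjusted p was 0.0952 without any one of knockouts 1, 2, 3 or 4 or of controls 1, 2, 3 or 5, and the call was lost, with a difference of 0.18 to 0.24. It held, at 0.0476, without knockout 5 or control 4, where all remaining knockouts lay above all remaining controls. With the p of the other pairs as they were, the test on 5 against 4 arrays could pass only where the groups did not overlap. A ratio within an array compares changes and says nothing of which alpha subunit is more abundant.

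Prkab1 encodes the beta1 subunit and lies on chromosome 5 at 116013586 to 116024503. It measured 8.90, 9.01, 9.04, 8.83 and 9.07 in knockouts 1 to 5, against 8.59, 8.62, 8.72, 8.84 and 8.82 in controls 1 to 5. All knockouts except knockout 4 lay above every control, and knockout 4 lay just under control 4. The means were 8.97 ± 0.10 in knockouts and 8.72 ± 0.11 in controls (SD, n = 5 each), a 1.19-fold difference (95% interval 1.08 to 1.31; log2 difference 0.25, SE 0.06, adjusted p = 0.0288; two-sided exact permutation p = 0.0159, unadjusted and added after the data were seen). The signal was well above background, with means above 98.0% of the negative controls in knockouts and 97.4% in controls.

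The call on Prkab1 lay near the threshold. It was lost without knockout 2 (adjusted p = 0.0749), knockout 3 (0.0716), control 1 (0.0686), control 2 (0.0628) or control 3 (0.0637), while the log2 difference stayed between 0.22 and 0.29 over all 10 arrays left out in turn. It was also lost with each array centred on its median (log2 difference 0.25, adjusted p = 0.0637) and with array weights (0.20, adjusted p = 0.0617).

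Prkab2 encodes the beta2 subunit and lies on chromosome 3 at 97658211 to 97673812. It measured 6.92, 7.05, 6.78, 6.90 and 6.95 in knockouts 1 to 5, against 6.86, 6.77, 6.76, 6.91 and 6.73 in controls 1 to 5. Knockouts 1, 2 and 5 lay above every control, and knockout 3 was among the controls. The means were 6.92 ± 0.10 in knockouts and 6.80 ± 0.08 in controls, and the log2 difference of 0.12 (SE 0.06, adjusted p = 0.233) did not pass. Its signal was closer to background than that of Prkab1, with means above 85.6% of the negative controls in knockouts and 83.8% in controls. Although Prkab1 passed and Prkab2 did not, the difference between their changes was 0.13 log2 units (SE 0.09, exact permutation p = 0.167, adjusted over 3 pairs p = 0.25), so a different change of the beta genes was not shown.

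**Figure D2:**
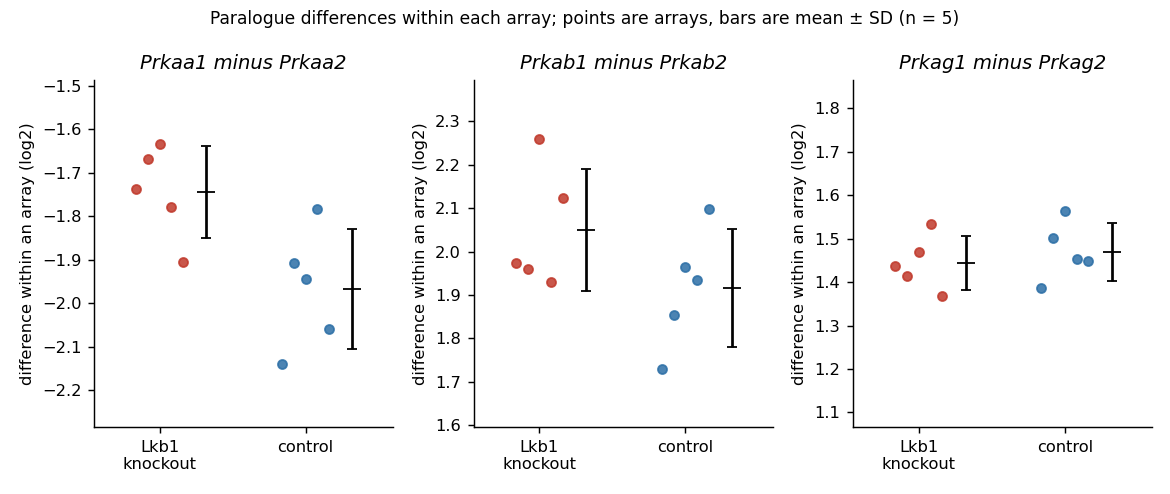
Difference between paralogues within each array in log2 units, knockouts left and controls right (n = 5 each, bars mean ± SD). For Prkaa1 minus Prkaa2, 4 of 5 knockouts lie above every control, whereas the groups overlap more for the beta and gamma pairs.

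The gamma genes differed little between the groups. Prkag1 encodes gamma1, the gamma subunit found in most tissues, and lies on chromosome 15 at 98812797 to 98831508. It measured 9.90, 9.97, 9.94, 10.02 and 10.02 in knockouts 1 to 5, against 9.91, 10.003, 9.94, 10.02 and 9.95 in controls 1 to 5. The groups covered nearly the same range. The means were 9.97 ± 0.05 in knockouts and 9.96 ± 0.04 in controls, a log2 difference of 0.01 (SE 0.04, adjusted p = 0.944), which was -0.03 after quantile normalisation. The interval of 94.7% to 107% of the control level was the narrowest of the 7 genes.

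Prkag2 encodes gamma2, which in human is known for mutations that cause a heart disease with glycogen storage, and lies on chromosome 5 at 24862735 to 25106282. It measured 8.47, 8.56, 8.47, 8.48 and 8.65 in knockouts 1 to 5, against 8.52, 8.50, 8.38, 8.56 and 8.51 in controls 1 to 5. Knockout 5 was the highest array and control 3 the lowest, and the remaining values were interleaved. The means were 8.53 ± 0.08 in knockouts and 8.49 ± 0.07 in controls (log2 difference 0.03, SE 0.05, adjusted p = 0.739; interval 94.9% to 110% of the control level). The change of Prkag1 minus that of Prkag2 was -0.03 log2 units (SE 0.04, exact permutation p = 0.540, adjusted over 3 pairs p = 0.540).

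Prkag3 encodes gamma3, which is known mainly from skeletal muscle, and lies on chromosome 1 at 74738922 to 74749471. It measured 6.999, 6.88, 7.06, 7.04 and 7.19 in knockouts 1 to 5, against 7.003, 7.18, 7.05, 6.79 and 6.98 in controls 1 to 5. Both groups spanned low and high values, and the spread was the widest of the 7 genes. The means were 7.03 ± 0.11 in knockouts and 7.002 ± 0.14 in controls (log2 difference 0.03, SE 0.07, adjusted p = 0.832; interval 91.6% to 114% of the control level), above 87.1% of the negative controls in knockouts and 86.5% in controls. The 9 skeletal muscle markers exceeded 46.8% to 87.4% of the negative controls in control kidneys. The actin gene Acta1 (87.4%), Pvalb (86.1%), which distal convoluted tubule cells also express, and the creatine kinase gene Ckm (84.5%) were the brightest, and the myosin genes Myh4 (46.8%) and Myh1 (47.0%) the dimmest. Summed on the linear scale, the 9 muscle markers reached 592 to 653 in knockouts and 625 to 705 in controls. Of the 9 markers 0 rose and 1 fell, which was Pvalb (log2 difference -0.65, limma adjusted p = 4.09e-04). The other muscle markers differed by -0.08 (Tnni2) to 0.07 (Acta1) log2 units, with Acta1 and Ckm (0.01) above 0 and the rest below. The ranges of the sums overlapped, and whether the muscle markers fell together was not tested. The part of the muscle markers in the signal of Prkag3 was not tested.

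**Figure D3:**
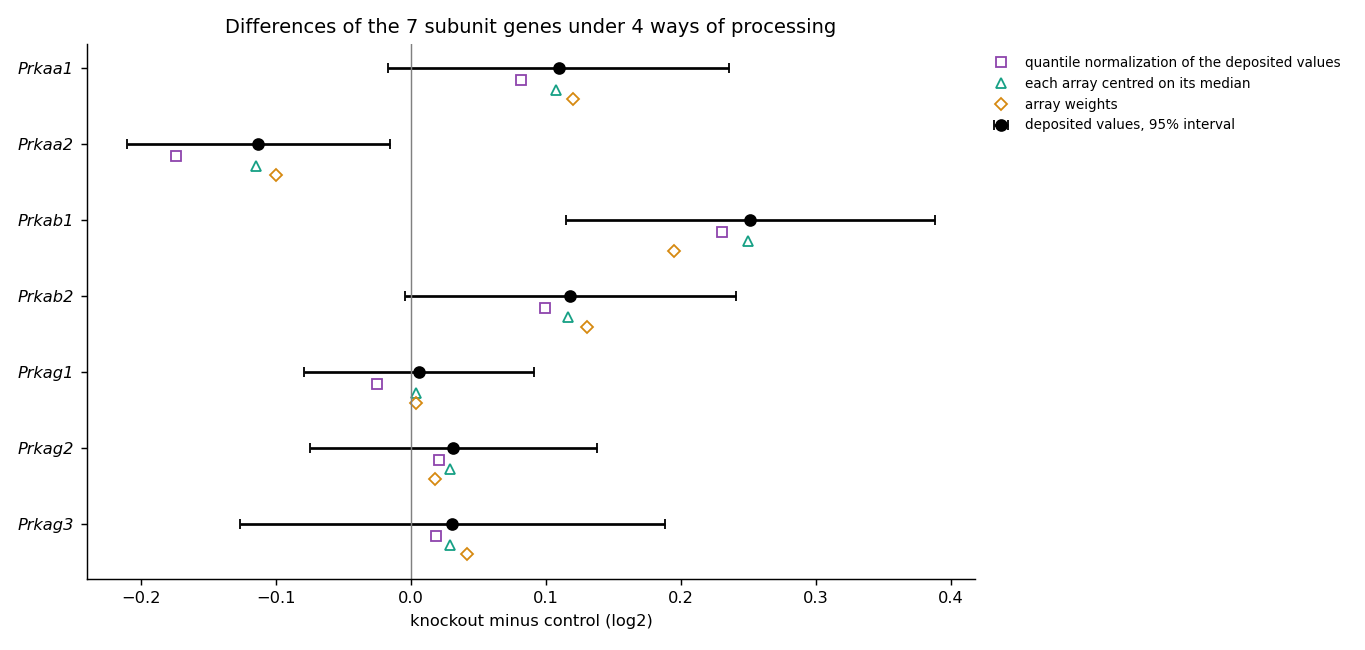
Log2 difference, knockout minus control, of each subunit gene with its 95% interval for the deposited values (black), and the same difference after quantile normalisation, median centring or array weighting (open symbols). Prkab1 stays between 0.20 and 0.25 under these settings, Prkaa2 is farthest from 0 after quantile normalisation, at -0.17, and Prkag1 changes sign there.

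Cell type markers also differed between the groups, and in whole kidney a change in the number of cells of a type and a change in RNA per cell cannot be told apart. The counts below stand beside 5.37% of all genes called higher and 2.67% called lower, and no test compared them. Of 12 phagocyte markers 11 rose and 0 fell, with sums of values turned back to the linear scale of 2549 to 4800 in knockouts and 1495 to 1836 in controls. All 9 measured fibroblast markers rose, with sums of 4675 to 8452 in knockouts and 2421 to 3129 in controls. Of 6 measured T lymphocyte markers 3 rose and 0 fell, but they were dim, above 38.9% to 69.2% of the negative controls in control kidneys. Of 7 measured thick ascending limb markers 6 fell and 1 rose, with sums of 16069 to 17771 in knockouts and 23479 to 25489 in controls. Of 10 proximal tubule markers 4 fell and 0 rose, with sums of 35279 to 42644 in knockouts and 43268 to 45672 in controls. Of 6 distal convoluted tubule markers 4 fell and 0 rose, whereas of 7 principal cell markers 2 rose and 0 fell. None of the 5 measured podocyte markers or 7 endothelial markers passed. In these lists no marker was below the negative control median on all arrays, and their part in the differences of Prkab1 and of the alpha pair was not tested.

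Map7d3, Kcnc2 and A4galt had the values most like those of Prkab1 over the 10 arrays, among the genes eligible for this ranking. Eligible genes had a single row, and symbols of predicted genes and of some families (such as Gm, Rik, Mir, Snor, Olfr and Vmn) were left out. Likeness was the root mean square difference after each gene's mean was subtracted, which was 0.05 log2 units for Map7d3 and Kcnc2 and 0.06 for A4galt. Map7d3, a microtubule-associated protein gene, differed by 0.18 (SE 0.06, adjusted p = 0.106), but its signal was dim, with a mean above 45.9% of the negative controls in knockouts and 41.3% in controls. Kcnc2, a voltage-gated potassium channel gene, differed by 0.18 (SE 0.06, adjusted p = 0.0943), above 65.7% of the negative controls in knockouts and 61.0% in controls. A4galt, the synthase of the glycolipid globotriaosylceramide, differed by 0.22 (SE 0.06, adjusted p = 0.0531). In all 3 genes, as in Prkab1, knockout 4 was the lowest knockout. The 3 genes were chosen for likeness over these same arrays. Their direction and their low knockout 4 come with that choice and are no separate evidence on Prkab1. None of the 3 passed with the deposited values. A4galt passed with dim genes filtered out (adjusted p = 0.0400), without knockout 4 (0.0119) and without control 4 (0.0373).

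**Figure D4:**
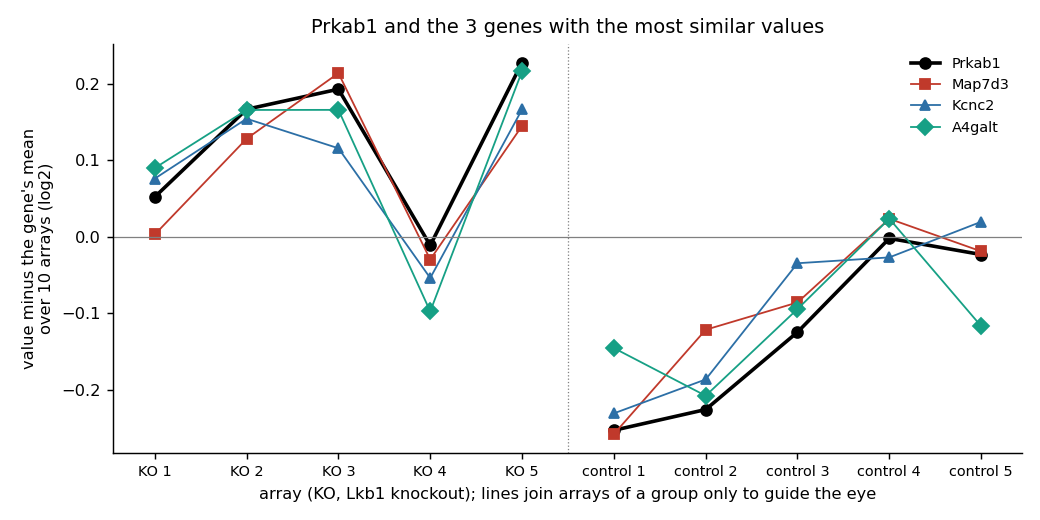
Values of Prkab1 (black) and of the 3 eligible genes most like it, each minus its own mean over 10 arrays in log2 units. The 5 knockouts are at the left and the 5 controls at the right. Knockout 4 is the lowest knockout for all 4 genes, and controls 1 and 2 are the lowest controls for Prkab1.

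Upstream of AMPK, Stk11 was the only gene of the list of AMPK kinases that passed. Of its 7 measured genes 1 fell and 0 rose, with a median log2 difference of -0.09 beside -0.03 over all genes. The list holds the LKB1 partners Strada, Stradb, Cab39 and Cab39l, and the other AMPK kinases Camkk2 and Map3k7. None of 3 phosphatase genes passed by limma, with 0 also at an unadjusted p under 0.05. Ppm1e differed by -0.07 (SE 0.05, adjusted p = 0.414) and Ppm1a by -0.04 (SE 0.04, adjusted p = 0.571).

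Among 10 regulators and scaffolds of AMPK, Sesn3 fell, 0 rose and 9 did not pass, with a median of -0.06. Sesn3 encodes a sestrin, a stress-induced protein that promotes AMPK activity. It measured 8.64, 8.68, 8.50, 8.67 and 8.94 in knockouts 1 to 5, against 8.89, 8.99, 9.005, 9.17 and 8.94 in controls 1 to 5. All knockouts except knockout 5 lay below every control. The log2 difference was -0.31 (SE 0.07, adjusted p = 0.0234). The call was lost, at adjusted p of 0.0502 to 0.0563, without any one of knockouts 1, 2, 3 or 4 or of controls 3 or 4, and at 0.0559 with median centring.

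Among the substrate genes listed, Acacb had the smallest adjusted p. It encodes acetyl-CoA carboxylase 2, whose product malonyl-CoA restrains fatty acid entry into mitochondria, and AMPK inhibits it by phosphorylation. Acacb measured 7.58, 7.62, 7.52, 7.53 and 7.77 in knockouts 1 to 5, against 8.16, 8.24, 8.12, 8.40 and 8.03 in controls 1 to 5. Every knockout was below every control. The knockout level was 66.6% of the control level (95% interval 60.0% to 73.9%; log2 difference -0.59, SE 0.07, adjusted p = 4.73e-04), and the adjusted p was at most 0.00208 with any 1 array left out. Its paralogue Acaca differed by -0.12 (SE 0.06, adjusted p = 0.262) and was looked up for this comparison after its value was seen. Of the 6 measured lipid substrates 1 fell, 0 rose and 5 did not pass, with a median of -0.08.

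Of 9 substrates of growth, autophagy and mitochondria, Eef2k rose, 0 fell and 8 did not pass, with a median of -0.04. Eef2k, the kinase that inhibits elongation factor 2, measured 6.95, 7.01, 6.98, 6.85 and 6.85 in knockouts 1 to 5, against 6.69, 6.73, 6.79, 6.77 and 6.68 in controls 1 to 5. The groups did not overlap. The log2 difference was 0.20 (SE 0.05, adjusted p = 0.0198), and the adjusted p was 0.0588 without knockout 2, 0.0530 without knockout 3 and 0.0514 without control 5.

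Of 9 measured substrates of glucose handling, Hdac4 rose, Gys2 fell and 7 did not pass, with a median of -0.02. Hdac4, a class IIa histone deacetylase held in the cytoplasm by phosphorylation, measured 8.06, 8.09, 7.99, 8.06 and 7.92 in knockouts 1 to 5, against 7.72, 7.80, 7.87, 7.84 and 7.80 in controls 1 to 5. Its groups did not overlap, and the log2 difference was 0.22 (SE 0.05, adjusted p = 0.0119). Gys2, the glycogen synthase best known from liver, measured 6.81, 6.23, 6.18, 7.004 and 7.17 in knockouts 1 to 5, against 7.52, 7.12, 7.67, 7.26 and 7.90 in controls 1 to 5. Knockouts 2 and 3 were far below the rest, and knockout 5 lay above control 2. The log2 difference was -0.82 (SE 0.20, adjusted p = 0.0259), and the call was lost, at adjusted p of 0.0582 to 0.0682, without any one of knockouts 2 or 3 or of controls 1, 3 or 5.

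Of 3 kidney transport genes whose proteins AMPK acts on (Slc12a1, Atp6v1a and Cftr) and Nedd4l, a ubiquitin ligase that regulates sodium channels, Slc12a1 and Atp6v1a fell and the other two did not pass. Slc12a1, the sodium-potassium-chloride cotransporter of the thick ascending limb, measured 12.20, 12.27, 12.17, 12.32 and 12.22 in knockouts 1 to 5, against 12.57, 12.58, 12.64, 12.68 and 12.45 in controls 1 to 5. The groups did not overlap (log2 difference -0.35, SE 0.05, adjusted p = 0.00154), and Slc12a1 is itself one of the thick ascending limb markers whose sums are given above. Atp6v1a, the catalytic subunit of the proton pump, measured 11.04, 10.999, 10.82, 11.05 and 11.09 in knockouts 1 to 5, against 11.29, 11.25, 11.14, 11.16 and 11.14 in controls 1 to 5. Its groups did not overlap. The log2 difference was -0.20 (SE 0.05, adjusted p = 0.0459), and the call held with knockout 5 left out but was lost, at adjusted p of 0.0594 to 0.101, with any other array left out, without the variance trend (0.0519) and with median centring (0.104). Intercalated cells are rich in this pump, and 6 of 7 intercalated cell markers fell, with linear sums of 2438 to 3330 in knockouts and 3768 to 4514 in controls. The part of these cells in the values of Slc12a1 and Atp6v1a was not tested.

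LKB1 also activates a family of kinases related to the alpha subunits of AMPK. Of 11 measured members Sik1 rose, 0 fell and 10 did not pass, with a median log2 difference of 0.10. Sik1, a salt-inducible kinase, measured 9.34, 9.34, 9.35, 9.35 and 9.30 in knockouts 1 to 5, against 9.003, 9.12, 9.02, 8.89 and 9.12 in controls 1 to 5. The knockouts lay close together and above every control (log2 difference 0.31, SE 0.05, adjusted p = 0.00214). The 8 pathway lists held 59 measured genes, of which 3 rose and 6 fell, or 15.3% called, beside 8.04% of all genes. The median of these 59 differences was -0.02. The lists were chosen with earlier results of these data known, and the 6 falls include Stk11, the targeted gene. The share over all genes also counts dim genes, and no test compared the shares.

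**Figure D5:**
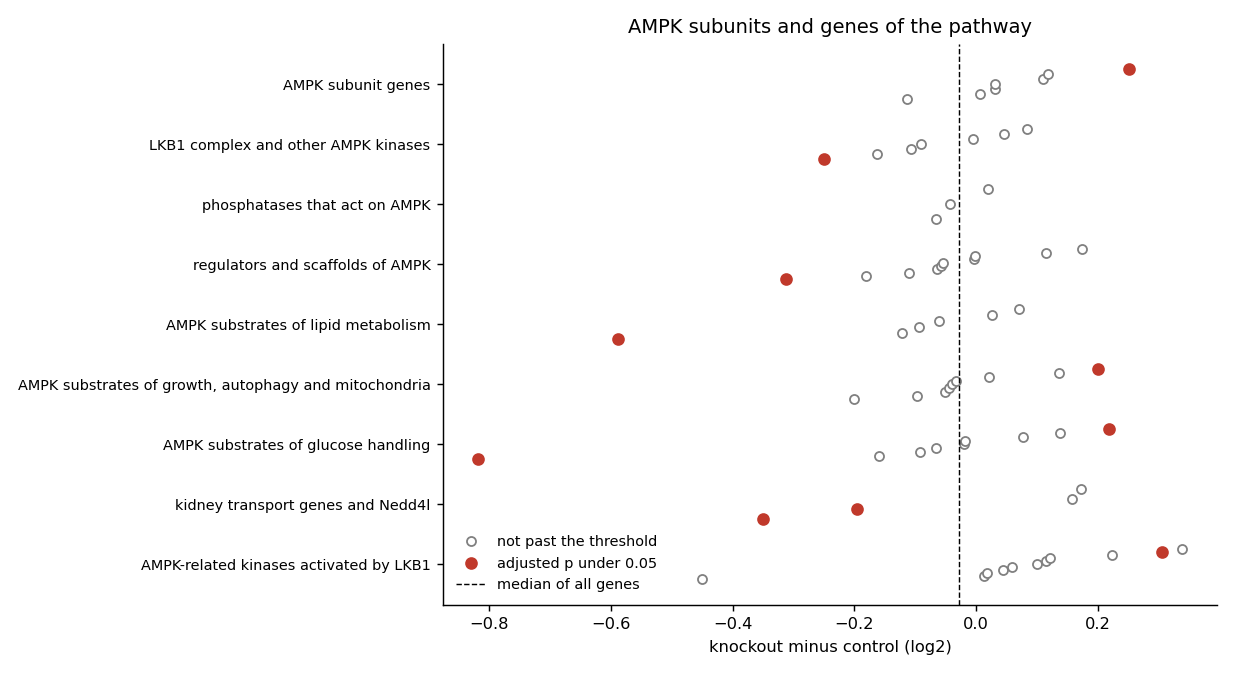
Log2 difference, knockout minus control, of each measured gene in the 7 subunit genes (top row) and in 8 lists of pathway genes. Filled points passed limma at adjusted p under 0.05, open points did not, and the dashed line is the median of all 30063 genes at -0.03.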

How the data were processed

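The authors deposited RMA log2 values, 1 per transcript cluster, for the mm10 build, per the submitters' processing notes. Their software versions were not given in the sources used here. The log2 scale was read from their range, with array maxima of 14.07 to 14.28. Of 72688 rows, 30604 had 1 gene symbol in the platform annotation, 2146 several and 39938 none, and 1135 symbols were updated. The last 2 kinds were left out. Rows were averaged per gene. Knockouts and controls were compared over all 30063 genes with limma 3.58.1 in R 4.3.3 (lmFit, eBayes with a mean-variance trend, no covariate, no filter), with Benjamini-Hochberg adjustment over all genes and a threshold of 0.05. Exact permutation tests of single values used SciPy 1.17.1. The fit was also run on simulated data with independent noise and changes larger than those of the subunit genes. Recovery of changes as small as theirs was not tested. The 10 arrays came from 5 mice per genotype, per the labels' protocols. The replicate numbers were not taken as pairs, since same-numbered arrays did not all deviate together. The members and lists were chosen with earlier results of these data known. Named genes were Stk11, the 7 members, up to 4 called genes per list (or the 2 with the smallest p), and the 3 genes most like each called member. The last were ranked among single-row genes only, without predicted genes and some gene families. Alternatives were the moderation of variance, normalisation, a filter on dim genes, rows fitted singly, array weights, the replicate block and leaving out each array. List genes without a single-gene row were not analysed here. Sequences are from RefSeq (GRCm38.p6), in which all 7 members matched by symbol.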

Additional observations from a re-analysis of the deposited data

How the results depend on the processing

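Over all genes, 1614 were called higher and 803 lower (66.8% higher), against 1623 and 1301 (55.5% higher) after quantile normalisation. With 1 array left out the counts were 1089 to 1947 higher and 435 to 1473 lower, the last without knockout 5. The count of subunit genes called higher was 1, against 0 with median centring and 0 with array weights, and 0 to 1 with 1 array left out. The count called lower was 0, against 1 (Prkaa2) after quantile normalisation. The pathway lists had 3 higher and 6 lower, against 5 higher with array weights and 10 lower after quantile normalisation, and 2 to 5 higher and 3 to 7 lower with 1 array left out. Prkab1 had log2 differences of 0.25 with median centring and 0.20 with array weights, neither past the threshold, and of 0.22 to 0.29 with 1 array left out. The Prkaa1 minus Prkaa2 difference was 0.18 to 0.27 with 1 array left out. Prkag1 was -0.0252 after quantile normalisation, and -0.00838 to 0.0226 with 1 array left out, and Prkag3 was -0.0217 to 0.0756. The cause of these changes was not tested. Stk11 kept its direction and its call under every alternative run, at -0.28 to -0.22 with 1 array left out. A filter on dim genes, variance moderation without the trend or with robust weights and single-row fits changed the call of no subunit gene.

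Same-numbered arrays of the groups correlated at -0.0795 to 0.313 in their deviations from the group means, over 0.1 in 4 of 5 pairs, with pair 4 the exception, so the numbers were not taken as pairs. Of the knockouts 4 of 5, and of the controls 3 of 5, correlated best with the array of their own number, a hint from the data and not the design. With the replicate block Prkab1 passed (log2 difference 0.25, adjusted p = 0.0342), and the calls were 1826 higher and 955 lower. Paired sign flips of the replicate block gave the Prkaa1 minus Prkaa2 difference of 0.22 a p of 0.0625 (adjusted over 3 pairs 0.1875), so the call was lost, though 0.0625 is the smallest p that 5 pairs allow and no such test could pass. With 5 kidneys a group, the intervals of the 3 gamma genes together allow levels from 91.6% to 114% of the control level.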
